A study of Homo sapiens with 2 samples.

Results

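The mitochondrial ribosomal protein genes examined here were the nuclear genes named MRPL or MRPS followed by a number. They were found by symbol among the probe sets that the platform annotation assigns to a single gene, with antisense genes and pseudogenes left out. The search gave 75 genes of the 19775 genes with a single symbol, and the probe set that was brightest by its mean log2 signal over both arrays stood for the gene. The 75 genes had 140 probe sets in all. HCT116, the source of the RNA, is an established line of human colorectal carcinoma cells and was grown in DMEM with serum and transfected with a lipid reagent. The cells had received either a control siRNA or siRNAs against JMJD1A and JMJD1B, now KDM3A and KDM3B, which encode histone demethylases, and RNA was taken 2 days later. Each condition was measured on 1 single-channel array, so differences below have neither a replicate error nor a test, and how precise they are is limited by that number of arrays. The siRNA sequences are not given in the labels. In the text, the siRNA array is the one for JMJD1A and JMJD1B.

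Mitochondria carry their own ribosome, which translates the few messenger RNAs of mitochondrial DNA, all of them for subunits of the respiratory chain and the ATP synthase. Its ribosomal RNAs are made inside the organelle, while every one of its proteins is encoded in the nucleus, made in the cytosol and imported. Part of the proteins descend from bacterial ribosomal proteins and part have no bacterial counterpart. Translation also needs initiation, elongation and release factors, a set of mitochondrial aminoacyl-tRNA synthetases, and assembly factors that modify the ribosomal RNA and join the subunits.

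On these arrays KDM3B read 3031 on the control array and 496 on the siRNA array, while KDM3A read 3884 and 3323. The log2 ratios were -2.61 for KDM3B and -0.22 for KDM3A, so KDM3A, 1 of the 2 named targets, was lower by less than 0.54, the SD of a single probe set described further on. The deposited signals had been scaled to the same trimmed mean on both arrays. The 18 hybridization control probe sets, which report RNAs added from outside the cells, all had a log2 ratio above 0, with a median of 0.61. The deposited scale is used throughout. With those controls set level instead, ratios between 0 and 0.61 would become negative. As a sign of RNA quality, the signal of the 3′ control probe set over that of the 5′ one was 0.914 (control) and 0.923 (siRNA) for GAPDH, and 1.59 and 1.77 for ACTB. Of 9 markers of colon epithelium 7 were measured, with EPCAM bright at 13794 and 19809. VIL1, at 86.2 and 104, and CDX2, at 108 and 78.2, were dim, and CDX1 and LGALS4 lay under the signal filter. Among markers of other cell types, 2 of 6 fibroblast, 2 of 5 leukocyte and 1 of 4 endothelial genes were measured, with the pan-leukocyte gene PTPRC under the filter. The fibroblast gene COL1A1, at 324 and 631, was brighter than VIL1 and CDX2.

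The 4 genes that differed at least 2-fold are MRPS7, MRPL36 and MRPL4, lower on the siRNA array, and MRPL33, higher. The 250 bases before their transcription start are shown because they are the promoters of the only members with a difference of that size. The sequences are from RefSeq on build GRCh38.p14, written 5′ to 3′ along the gene, with capitals at matches to 4 motifs given after them. For MRPL4, which has 2 listed starts, the first was used.
MRPS7 (chr17:75261629-75261878, plus strand): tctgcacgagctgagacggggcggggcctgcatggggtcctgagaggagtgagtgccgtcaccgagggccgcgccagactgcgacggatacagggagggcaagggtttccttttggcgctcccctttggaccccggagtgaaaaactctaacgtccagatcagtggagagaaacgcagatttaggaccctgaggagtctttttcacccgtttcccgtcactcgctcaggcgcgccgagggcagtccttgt
MRPL36 (chr5:1799838-1800087, minus strand): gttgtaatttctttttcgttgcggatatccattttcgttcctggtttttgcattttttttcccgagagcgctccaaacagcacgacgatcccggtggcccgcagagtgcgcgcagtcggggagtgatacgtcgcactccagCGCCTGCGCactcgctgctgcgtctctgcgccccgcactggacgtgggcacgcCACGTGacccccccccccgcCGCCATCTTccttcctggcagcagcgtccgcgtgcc
MRPL4 (chr19:10251701-10251950, plus strand): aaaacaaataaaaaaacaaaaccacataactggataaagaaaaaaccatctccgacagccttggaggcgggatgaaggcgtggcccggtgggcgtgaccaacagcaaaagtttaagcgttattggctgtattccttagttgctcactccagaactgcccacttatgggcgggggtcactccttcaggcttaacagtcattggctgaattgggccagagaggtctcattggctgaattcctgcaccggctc
MRPL33 (chr2:27771469-27771718, plus strand): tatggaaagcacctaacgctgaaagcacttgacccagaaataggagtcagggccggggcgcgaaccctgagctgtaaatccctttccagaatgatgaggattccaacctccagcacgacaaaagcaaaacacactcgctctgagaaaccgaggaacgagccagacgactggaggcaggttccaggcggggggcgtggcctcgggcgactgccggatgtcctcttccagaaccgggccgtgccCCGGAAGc

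The motifs searched on both strands were GCGCANGCG, the core of the sites of NRF1, CCGGAAG, the core of ETS factors such as GABPA, AAGATGGCG, bound by YY1, and the E-box CACGTG, bound by MYC among others. None of the 4 strings contains another. NRF1, GABPA and YY1 are known as regulators of nuclear genes for mitochondria. The MRPL36 window held the NRF1 letters 109 to 101 bases before the start, the E-box 56 to 51 bases before it and the YY1 letters 36 to 28 bases before it. The MRPL33 window held the ETS letters 8 to 2 bases before the start, and the MRPS7 and MRPL4 windows held none of the 4 strings. A match is a run of letters and not a measured site.

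Of the 75 genes, 67 had a promoter entry, and 11 of these had more than 1 listed start, of which the first was taken. The genes MRPL2, MRPL10, MRPL13, MRPL15, MRPL21, MRPL23, MRPL35 and MRPS28 had none. The ETS letters were present in 22 of the 67 windows (32.8%), against 11.8% of the 15843 windows of all protein-coding genes and 16.1% of those of measured genes. The YY1 letters were in 3 (4.48%, against 0.751% of all windows and 1.09% of those of measured genes), and the NRF1 letters in 13 (19.4%, against 9.72% and 13.1%). The E-box was in 6 (8.96%), a share between that of all windows (7.84%) and that of measured genes (9.03%). At least 1 of the NRF1, ETS and YY1 strings was in 34 of the 67 (50.7%), against 20.3% of all windows. The share of measured genes with any of these 3 was not computed. For each of the 3 alone it was above the share of all windows. The median log2 ratio was -0.21 in the 22 genes with the ETS letters and -0.22 in the 45 without. For the NRF1 letters the medians were -0.23 in 13 genes and -0.21 in 54, for the YY1 letters -0.04 in 3 and -0.22 in 64, and for the E-box -0.60 in 6 and -0.21 in 61. These medians describe a few genes, and their differences were not tested.

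All 75 genes passed the signal filter, which asked for a mean log2 signal at or above the median probe set (50.4 on the linear scale), and none lay near it. Their signals ran from 1160 to 17116 on the control array, with a median of 4449, and from 824 to 13890 on the siRNA array, with a median of 3940. The median member was brighter than 87.8% of the 12561 measured genes on the control array and than 85.5% on the siRNA array. The brightest was MRPL3, a core protein of the large subunit, at 17116 and 13890. MRPL57 followed at 11962 and 11689, and MRPS15 at 10425 and 12440. The dimmest were MRPL55 at 1160 and 911, MRPL38 at 1279 and 876, and MRPL28 at 1586 and 824. These are levels of probe sets and do not rank the transcripts, since probe sets differ in how well they bind.

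The mitochondrial ribosomal protein genes were spread around a level slightly below 0, and few differed by a large amount. Of the 75, 47 had a log2 ratio (siRNA array over control array) below 0 and 28 above 0, and the median was -0.21. Among all measured genes 47.9% lay below 0 and the median was 0.04. Among the 4797 measured genes within the members' range of mean signal 49.4% lay below 0 and the median was 0.02. A 2-fold difference was reached by 3 of 75 genes in the lower direction, against 8.53% of all measured genes, and by 1 of 75 in the higher direction, against 8.91%. Within the members' signal range these shares were 7.57% and 7.13%. At 1.5-fold, 16 of 75 were lower, against 19.5% of all measured genes, and 6 were higher, against 21.7%. The middle 50% of the members lay between -0.54 and 0.14, a width of 0.68, where genes of their signal range had a width of 0.92.

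**Figure D1:**
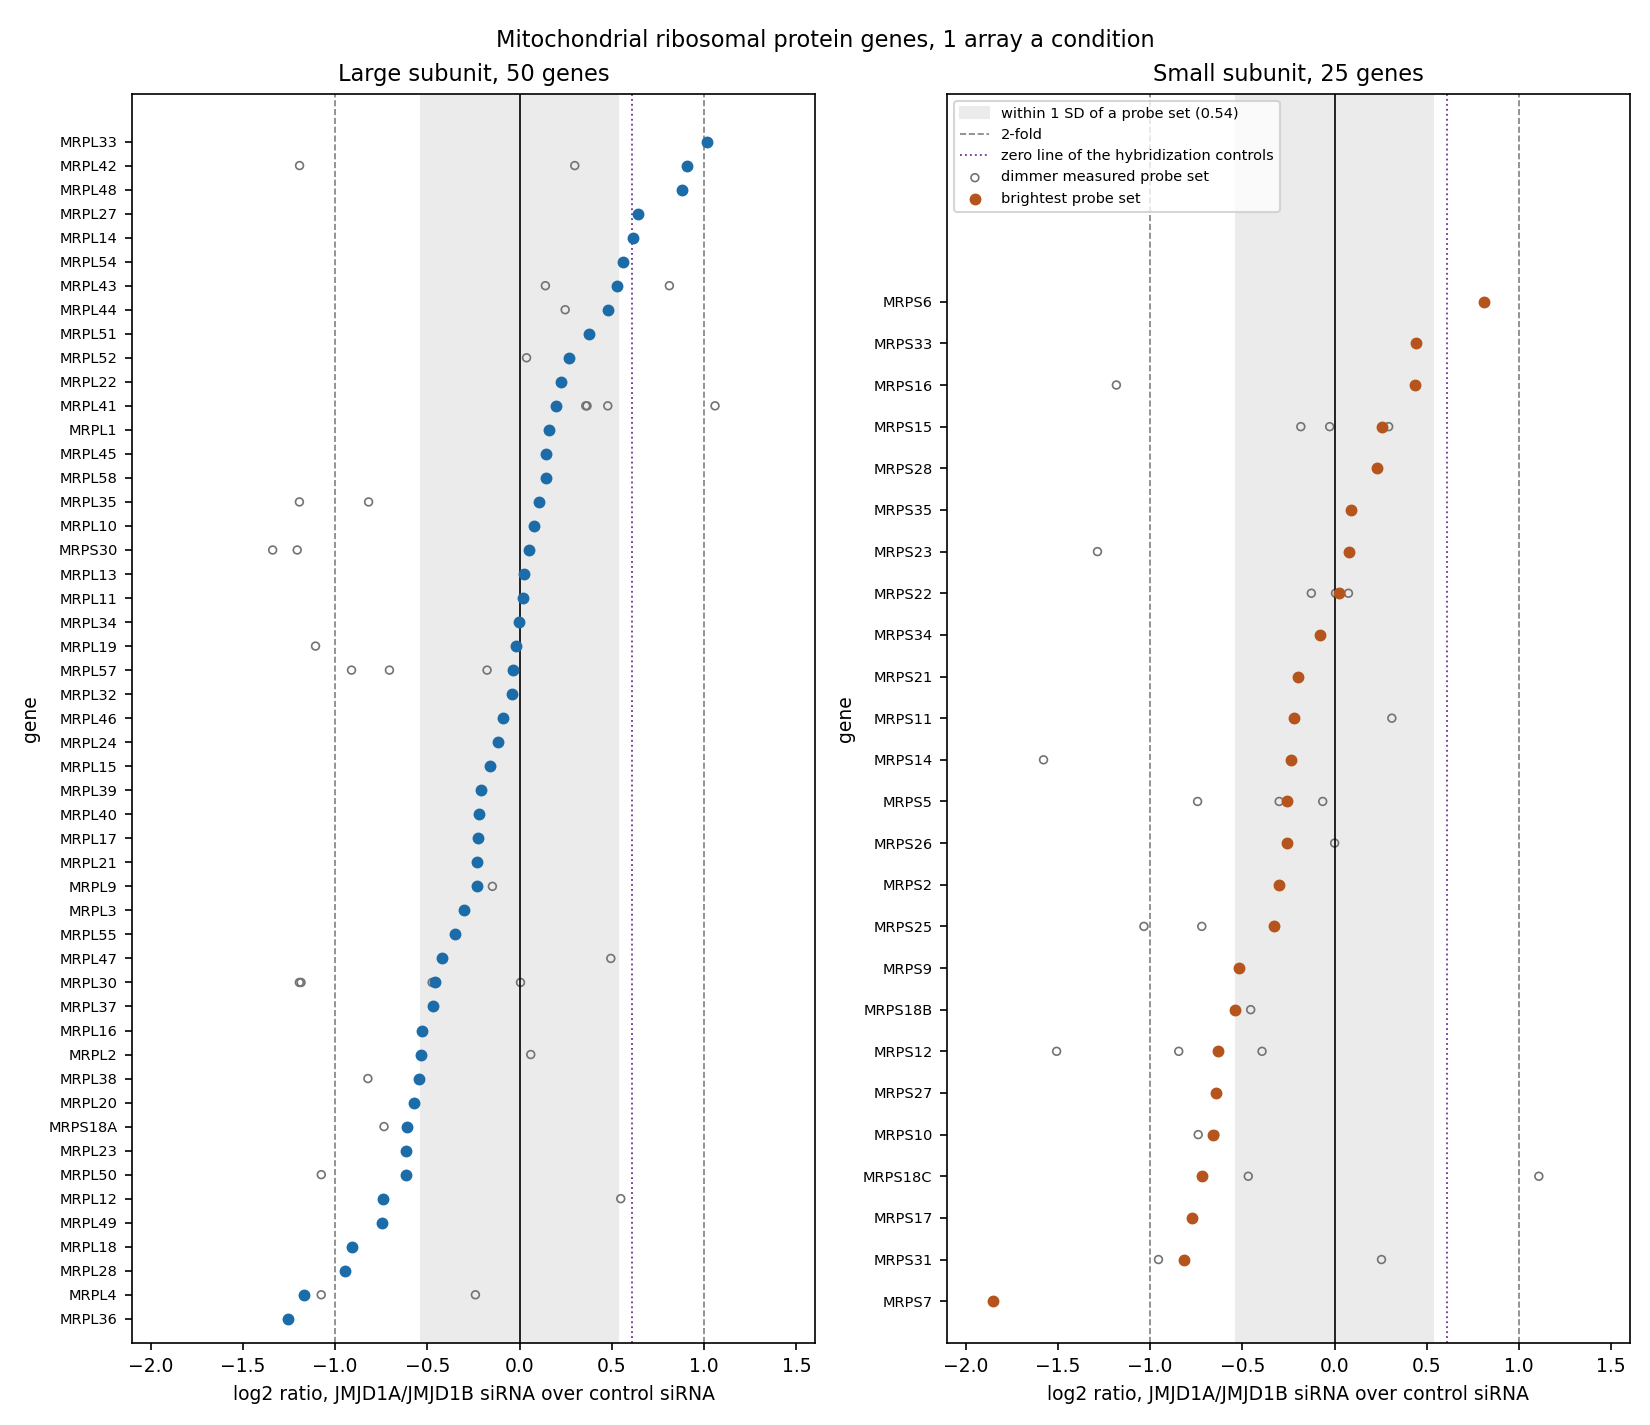
Log2 ratio of each of the 75 genes (siRNA array over control array, horizontal axis), in the large subunit (left, 50 genes) and the small subunit (right, 25 genes); filled points are the brightest probe set, open points the dimmer measured probe sets of the same gene. MRPS7, at -1.85, stands lowest, MRPL33, at 1.02, highest, and most genes lie in the grey band, which spans 1 SD of a single probe set (0.54) on either side of 0.

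The measure of scatter used here is the difference between probe sets of one gene. The 18 hybridization control probe sets, which report no RNA of the cells, had log2 ratios from 0.40 to 0.71. Over the 6192 genes with at least 2 measured probe sets, 1 probe set had an SD of 0.54 in its log2 ratio, computed from how far the 2 brightest lay apart. Over the 32 mitochondrial ribosomal protein genes with at least 2 it was 0.51. It covers the behaviour of probes and not the spread between cultures. Of the 75 genes, 48 differed by less than 0.54, 20 were lower by at least that amount and 7 higher. Of all measured genes 55.1% differed by less, 21.2% were lower by at least that amount and 23.7% higher.

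MRPS7, a protein of the small subunit's head, had the lowest ratio. It read 5342 on the control array and 1481 on the siRNA array, or 27.7% of the control value (3.61-fold lower, log2 ratio -1.85). Of all 12561 measured genes, 1.23% had a lower ratio. The gene had 1 probe set, so no second reading was available. MRPL36, a small core protein of the large subunit, read 8364 and 3501, a 2.39-fold difference (log2 ratio -1.26), also from 1 probe set. MRPL4, a large subunit protein at the tunnel through which the new chain leaves, read 2471 and 1099, a 2.25-fold difference (log2 ratio -1.17). Its second probe set, at 1253 and 594, gave -1.08, and its dimmest, at 421 and 357, gave -0.24. These 3 genes were lower by at least 2-fold under each of the 4 other scalings, and MRPL4 stood under 2-fold when its probe sets were averaged.

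The next members in order were lower by less than 2-fold. MRPL28 read 1586 and 824 (1.93-fold), and MRPL18, a protein of the central protuberance of the large subunit, 8425 and 4484 (1.88-fold). MRPS31 read 2269 and 1290 (1.76-fold), and its 3 measured probe sets gave -0.95, -0.81 and, near the filter, 0.25 (46.9 and 56.0). MRPS17, a core protein of the small subunit, read 5856 and 3428 (1.71-fold), and MRPL49 read 5242 and 3122 (1.68-fold). All 5 lay below 0 under each scaling. MRPL12 encodes the stalk protein of the large subunit, which is also known to bind the mitochondrial RNA polymerase. It read 7165 and 4288 (log2 ratio -0.74), while a much dimmer probe set of it, at 186 and 272, gave 0.55. MRPS12, a protein of the decoding centre, read 7784 and 5030 (log2 ratio -0.63), and its 3 dimmer probe sets lay at -1.51, -0.84 and -0.39.

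MRPS18A, MRPS18B and MRPS18C are 3 human genes that descend from 1 bacterial ribosomal protein gene. The product of MRPS18A sits in the large subunit and the products of MRPS18B and MRPS18C in the small one. MRPS18A read 2430 and 1593, a log2 ratio of -0.61, and its other probe set gave -0.74. MRPS18B read 4460 and 3067, a log2 ratio of -0.54, and its other probe set gave -0.45. MRPS18C read 4449 and 2703, a log2 ratio of -0.72, with dimmer probe sets at -0.47 and, near the filter, at 1.11 (36.3 and 78.1). By their brightest probe sets the 3 paralogues lay close to each other, between -0.72 and -0.54.

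MRPL33, a small core protein of the large subunit, had the highest ratio. It read 5877 on the control array and 11897 on the siRNA array, a 2.02-fold difference (log2 ratio 1.02), and 1078 measured genes ranked at or above it. It stayed above 0 but under 2-fold with each of the 4 other scalings, at 0.82 after loess and 0.41 when the hybridization controls set the level. MRPL42 read 7338 and 13782 (1.88-fold higher), but its second probe set gave 0.30 and its dimmest, at 450 and 197, gave -1.19. MRPL48 read 2841 and 5228 (1.84-fold higher) and MRPS6, a core protein of the small subunit, 3477 and 6095 (1.75-fold higher). MRPL27 read 6087 and 9482 (1.56-fold higher) and MRPL14 4423 and 6763 (1.53-fold higher), both core proteins of the large subunit. MRPL54 had a log2 ratio of 0.56, MRPL43 of 0.53, MRPL44 of 0.48 and MRPS33 of 0.44. With the hybridization controls as the level only MRPL33, MRPL42, MRPL48, MRPS6, MRPL27 and MRPL14 remained above 0, 6 of 75.

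By subunit, the large one had 50 genes, counting MRPS30 and MRPS18A, whose products are placed there. Of these, 30 lay below 0, with a median of -0.10. The small subunit had 25 genes, of which 17 lay below 0, with a median of -0.26. The ranges overlapped almost entirely, from -1.26 to 1.02 in the large subunit and from -1.85 to 0.81 in the small one. By descent, 31 of the 44 genes with a bacterial counterpart lay below 0, with a median of -0.23, and 13 of the 28 genes without one, with a median of 0.04. All 4 genes that differed 2-fold, MRPS7, MRPL36, MRPL4 and MRPL33, were among those with a bacterial counterpart, the larger group. Of these 44 genes 6.82% were at least 2-fold lower and 2.27% higher, against 8.53% and 8.91% of all measured genes. The count is therefore not read as a trait of that group. Within the large subunit the medians were -0.23 for 29 genes with and 0.14 for 19 genes without a counterpart. Within the small subunit they were -0.26 for 15 genes and -0.08 for 9. Corrected by loess for the trend with signal, the medians by descent were -0.28 and -0.11, so the group without a counterpart turned to below 0. Within the large subunit they were then -0.27 with and 0.06 without a counterpart. Within the small subunit they were -0.30 and -0.18. The difference between these groups was not tested, and MRPL55 and the paralogues MRPS18A and MRPS18B were counted in neither. MRPS18C was counted among the genes with a counterpart. MRPS18A and MRPS18B, left out although they share its descent, both lay below 0.

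Signal and ratio moved together to a modest degree. Across the 75 genes the log2 ratio correlated with mean log2 signal at a Pearson r of 0.38 and a Spearman rho of 0.40. Both measures come from the same 2 arrays, and the genes are not independent replicates. The trend over all measured genes also rose among bright genes. With that trend removed by loess, 55 of the 75 lay below 0, with a median of -0.25, against 49.9% of the 12561 measured genes. With the arrays level on the hybridization controls 69 of 75 lay below 0, with a median of -0.82, where 79.5% of all measured genes lay below 0, with a median of -0.57. The count below 0 was 53 with the arrays level on the median probe set and 52 after quantile normalization. The length of the gene from start to end had a weaker relation to the ratio, with an r of 0.18 on the log10 scale over the 75 genes and a rho of 0.18.

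**Figure D2:**
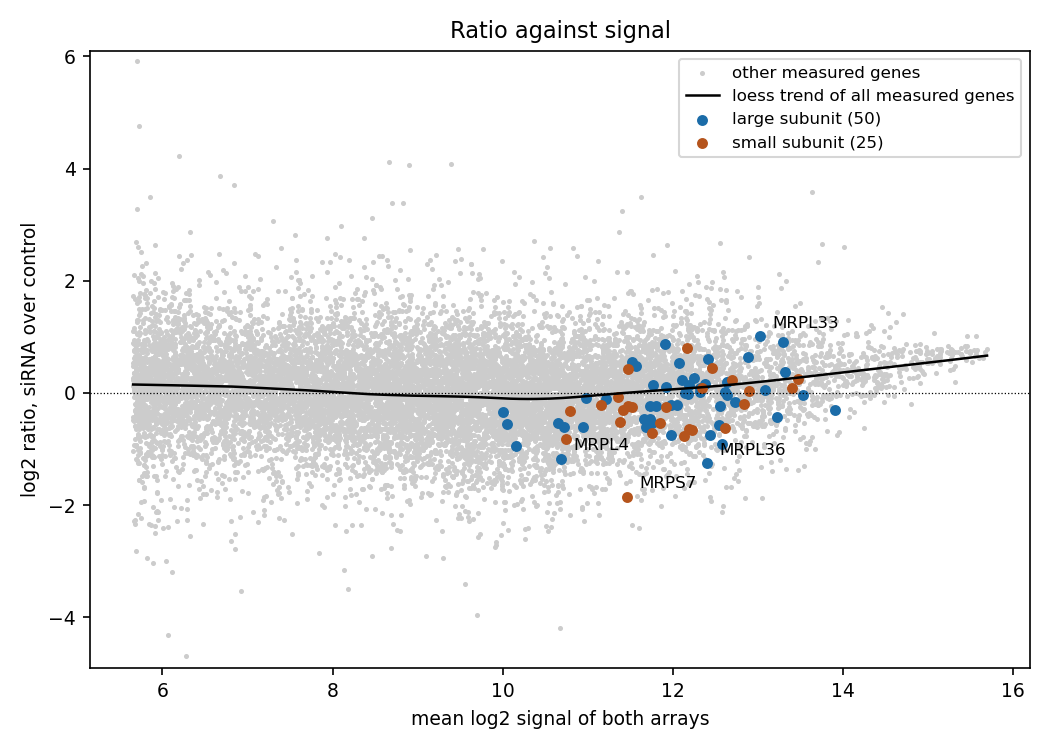
Log2 ratio (siRNA array over control array) against the mean log2 signal of both arrays; grey points are the measured genes, the black line is their loess trend, and coloured points are the 50 large subunit and 25 small subunit genes. The members lie at high signals, and 55 of the 75 lie under the black line.

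Other probe sets of the same genes give a second reading of part of the members. Among the 32 genes with at least 2 measured probe sets, the second brightest had the lower ratio in 18 (56.2%), a share near the 53.6% of the 6192 such genes in all. Both probe sets lay on the same side of 0 in 21 of the 32 (65.6%), against 71.2%. All measured probe sets lay below 0 in 13 genes and above 0 in 4, and the other 15 were mixed. How all genes split in this way was not computed. Of the 57 dimmer measured probe sets, 14 were at least 2-fold lower and 2 at least 2-fold higher. Their median was -0.39. Of the 10799 dimmer measured probe sets of all genes 12.7% were at least 2-fold lower and 8.84% at least 2-fold higher, with -0.06 as their median.

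In 12 of the 32 genes the probe sets of one gene lay at least 1 log2 unit apart. The matching share over all genes was not computed, so this count is not read as a trait of the members. MRPS30 read 8541 and 8850 by its brightest probe set, whereas its other 2, at 1153 and 500 and at 1018 and 403, gave -1.21 and -1.34. MRPS23 read 10496 and 11094 by the brightest and 585 and 240 by the other, a log2 ratio of -1.29. MRPS16 gave 0.44 by the brightest probe set, at 2453 and 3317, and -1.18 by the other, at 1293 and 570. MRPL19 gave -0.02 and -1.11, MRPL35 0.10, -1.19 and -0.82, and MRPS14 -0.24 and -1.58. MRPL30, with 5 measured probe sets, ran from -1.19 to 0.00. The others were MRPL42, MRPL12, MRPS12, MRPS31 and MRPS18C, given above. In 11 of the 32 genes the brightest probe set differed by less than 2-fold and a dimmer one was at least 2-fold lower, which held for 13.1% of the 6192 genes in all. They were MRPS30, MRPS23, MRPS16, MRPS14, MRPS12, MRPL19, MRPL30, MRPL35 and MRPL42, and, with probe sets closer together, MRPL50 and MRPS25. Which transcript form each probe set reads was not analysed here.

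Head-to-head gene pairs, in which 2 genes start close together on opposite strands, are common among these genes. By the RefSeq starts, 20 of the 67 genes (29.9%) had a protein-coding neighbour starting within 1000 bases upstream on the other strand, against 15.1% of 9669 measured genes. They formed 19 pairs, and in 18 of these the partner was measured. On the deposited scale both genes lay below 0 in 8 pairs and above 0 in 3, and the other 7 went opposite ways. How the pairs of all genes split was not computed. With the hybridization controls set level, both genes of each of those 7 pairs would lie below 0. MRPL14 and MRPL27 would then stand above 0 with their partners below it. Across the 18 pairs the log2 ratios of the 2 genes correlated at a Pearson r of 0.03 and a Spearman rho of -0.03, as a description over pairs read on the same arrays.

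MRPS7 had the widest gap to its partner. GGA3, whose start lies 273 bases from that of MRPS7, read 584 and 617, a log2 ratio of 0.08 against -1.85. MRPL49 and FAU start 49 bases apart and differed in direction on the deposited scale, with -0.75 for MRPL49 and 0.60 for FAU. FAU encodes a cytosolic ribosomal protein joined to a ubiquitin-like one. MRPS18C at -0.72 stood beside HELQ, a DNA helicase gene, at 0.58. MRPL57 at -0.03 stood beside the kinetochore gene SKA3 at -1.38, the only partner that differed 2-fold. These 4 pairs were the ones that differed by at least 1 log2 unit. Closer pairs included MRPS12 at -0.63 with SARS2, the mitochondrial seryl-tRNA synthetase gene, at -0.79, and MRPL50 at -0.61 with ZNF189 at -0.60. MRPS11 and MRPL46 form a pair within the set itself, with starts 320 bases apart, one of the small and one of the large subunit. They read 2470 and 2120, and 2088 and 1962, with log2 ratios of -0.22 and -0.09.

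**Figure D3:**
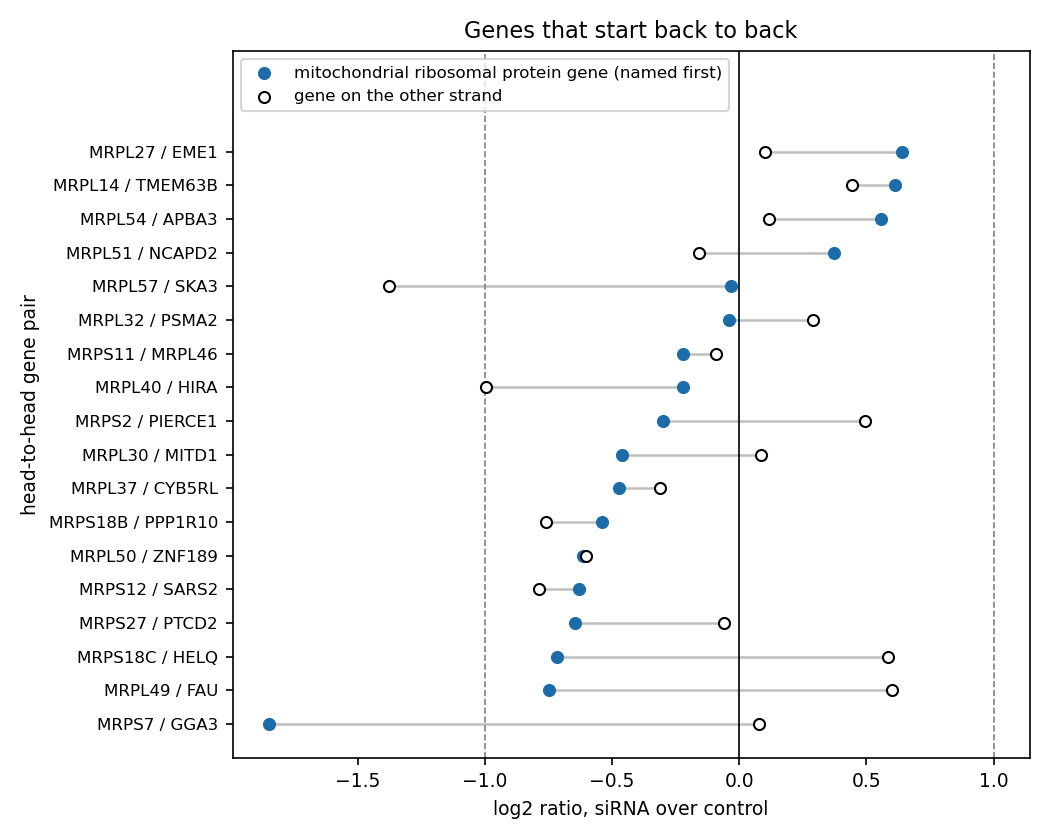
Log2 ratio (siRNA array over control array) of both genes in each of 18 head-to-head pairs with a measured partner; filled points are the mitochondrial ribosomal protein gene named first, open points the gene on the other strand. The widest gaps are those of MRPS7 and GGA3, MRPL49 and FAU, MRPL57 and SKA3, and MRPS18C and HELQ.

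Other protein genes of the same ribosome carry names outside the MRPL and MRPS series. Of 5 listed, 4 were measured, and by their brightest probe sets all 4 lay slightly above 0, from 0.12 to 0.39. They were DAP3 (6240 and 6799), PTCD3 (2997 and 3579), GADD45GIP1 (2689 and 3321) and CHCHD1 (7854 and 10270). A dimmer measured probe set lay at -0.68 for DAP3, -1.63 for PTCD3 and -0.61 for GADD45GIP1, while CHCHD1 had a single one. DAP3 was at -0.02 after loess, and all 4 would lie below 0 with the hybridization controls set level.

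By their brightest probe sets, genes that build the mitochondrial ribosome held more 2-fold differences than the genes for its proteins. Of 27 measured assembly factors 7 were at least 2-fold lower and 0 at least 2-fold higher. Their median was -0.16. The share lower was 25.9%, where all measured genes had 8.53% and the mitochondrial ribosomal protein genes 3 of 75. MRM1 (539 and 149, 3.61-fold lower), MRM2 (3833 and 1168, 3.28-fold) and MRM3 (2656 and 1273, 2.09-fold) encode the methyltransferases that modify the RNA of the large subunit. MTG1, a GTPase that acts late in large subunit assembly, read 307 and 89.1 (3.44-fold lower). NSUN4, a methyltransferase of the small subunit RNA, was 2.66-fold lower, MPV17L2 2.62-fold and ERAL1, an RNA chaperone of the small subunit, 2.09-fold. At the other end were TFB1M, which methylates the small subunit RNA, with a log2 ratio of 0.86, RPUSD3 at 0.67 and NOA1 at 0.64. The probe sets of TFB1M ran from -0.43 to 1.06. The assembly factors were also dimmer, with a median mean signal of 1393 against 4416 for the ribosomal protein genes. Among the dimmer measured probe sets of the ribosomal protein genes, 14 of 57 were at least 2-fold lower. The difference between this list and the ribosomal protein genes was not tested, nor was its relation to signal.

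The list of mitochondrial translation factors held 1 gene with a 2-fold difference. Of 14 measured, 9 (64.3%) lay below 0, against 47.9% of all measured genes, with a median of -0.17. At least 2-fold lower was 1 (7.14%, against 8.53%). That was GUF1, a GTPase of the elongation factor family, at 1617 and 372 (4.35-fold lower, with its other probe set at -1.77). TACO1, an activator of COX1 translation, gave -0.67, with its other probe set at 0.35, and the initiation factor gene MTIF2 gave -0.60. MTIF3, the other initiation factor gene, had the highest ratio at 0.84, followed by LRPPRC at 0.35 and MTRF1 at 0.21. The probe sets of LRPPRC, which stabilises mitochondrial messenger RNAs, ran from -2.29 to 0.35, and those of MTRF1 from -0.31 to 0.21. Of 15 mitochondrial aminoacyl-tRNA synthetase genes 4 were at least 2-fold lower and 1 at least 2-fold higher. Their median was -0.42, at a median mean signal of 810. CARS2 (3.24-fold), LARS2 (2.91-fold) and MARS2 (2.56-fold) were lowest. WARS2 (278 and 594) was 2.14-fold higher, IARS2 had a ratio of 0.39 and NARS2 of 0.13.

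Genes for the upkeep and transcription of mitochondrial DNA stood lowest of the lists compared. Of 11 measured, 10 lay below 0 (90.9%, against 47.9% of all measured genes). At least 2-fold lower were 5 (45.5%, against 8.53%). The list's median was -0.77, at a median mean signal of 1441. It was -0.71 after loess and -1.38 with the arrays level on the hybridization controls. The list is short and was not tested. TFAM, the protein that packages mitochondrial DNA and starts its transcription, read 3217 and 1388 (2.32-fold lower), and its 4 probe sets ran from -1.32 to -0.86. The helicase gene TWNK read 2138 and 972, and POLRMT, the gene of the mitochondrial RNA polymerase, 1773 and 824 (2.15-fold lower). POLG2, at 0.02, TFB2M, at -0.16, and SSBP1, at -0.19, had the highest ratios in this list. Among regulators of nuclear genes for mitochondria, 2 of 8 measured (25%) were at least 2-fold lower, against 8.53% of all measured genes. These were the coactivator genes PPARGC1B (1057 and 378, 2.80-fold) and PPRC1 (1624 and 661, 2.46-fold). YY1 followed at -0.76. GABPA, at 0.16, NRF1, at 0.05, and ESRRA, at -0.22, were highest by their brightest probe sets. The 4 measured probe sets of NRF1 ran from 0.05 to 1.5. The 2 of GABPA ran from 0.16 to 0.55 and the 2 of ESRRA from -0.22 to 0.23. The 2 of PPARGC1B ran from -1.48 to -0.55 and the 6 of YY1 from -0.76 to -0.03, while PPRC1 had a single one. The messenger RNAs that this ribosome translates went the other way on the deposited scale. Of 7 measured, 6 lay above 0 and 1 (14.3%) below, against 47.9% of all measured genes below 0. Their median was 0.57. COX1 read 13976 and 31203 (2.23-fold higher) and COX3 1080 and 1026. Set level on the hybridization controls, these messenger RNAs had a median of -0.04.

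The mitochondrial ribosomal protein genes stood lower than the genes for cytosolic ribosomal proteins and for the respiratory chain. Of 54 measured cytosolic ribosomal protein genes, taken by symbol and so including paralogues with an L in the symbol's ending, 52 lay above 0. Their median was 0.70, with the middle 50% between 0.61 and 0.75. The 2 below 0 were such paralogues, RPL7L1 at -1.67 and RPL10L at -0.44. Of 71 measured nuclear genes for subunits of the respiratory chain and ATP synthase, 62 lay above 0, with a median of 0.41. For the mitochondrial ribosomal protein genes the count was 28 of 75, the median -0.21, and the middle 50% was wider than in either of those lists. Both comparison lists were brighter, with a median mean signal of 36373 and 11447 against 4416. After loess the medians were 0.12 for cytosolic ribosomal protein genes, 0.12 for respiratory chain genes and -0.25 for mitochondrial ribosomal protein genes. The gap narrowed, the mitochondrial ribosomal protein genes stayed lowest of the 3, and the other 2 lists lay together. With the arrays level on the hybridization controls they were 0.09, -0.20 and -0.82. With 1 array a condition these differences between lists have no test.

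**Figure D4:**
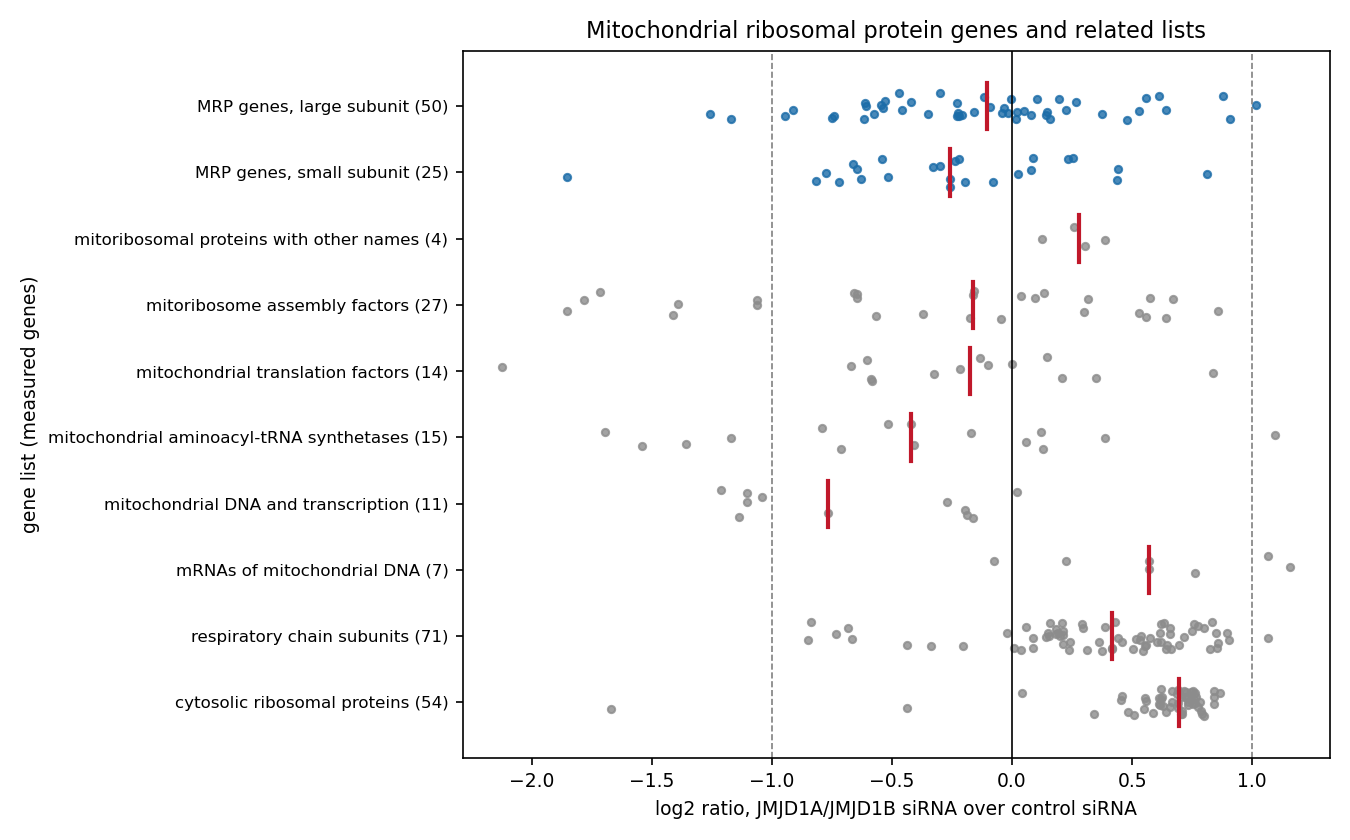
Log2 ratio (siRNA array over control array) of every measured gene in 10 lists, with the number of genes in brackets; each point is a gene and the red bar is the list median. The 2 subunits of the mitochondrial ribosome have medians of -0.10 and -0.26, below the respiratory chain (0.41) and cytosolic ribosomal protein genes (0.70).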

How the data were processed

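The authors deposited a linear signal intensity for 54675 probe sets on 2 arrays. The submitters' processing notes name MAS5, whose version and settings are not given in the sources used here, and detection calls were not used. The mean without the top and bottom 2% was 500.1 on either array, which is a scaling of whole arrays. Both columns were matched to a sample. RNA input was 0.5 ug, per the labels' protocols.

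The platform annotation named the probe sets: 41091 carried 1 symbol, 1801 several and 11721 none. All 75 members had a gene identifier with the same symbol in the RefSeq table. Ratios are log2 siRNA signal minus log2 control signal, without a pseudocount. A gene was measured if its mean log2 signal reached the median of non-control probe sets. Loess (span 0.3) was fitted over all measured genes. Python 3.11.15, numpy 2.4.6, pandas 2.3.3 and statsmodels 0.14.6 were used, and the calculations were tested on simulated data.

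The members, lists, alternatives and the rule for named genes were chosen with earlier results of these data known. The rule takes the 10 lowest and 10 highest members, all with a 2-fold difference, the MRPS18 paralogues, those whose probe sets lie at least 1 log2 unit apart, the 3 brightest and 3 dimmest, and up to 3 genes at each end of the other lists. Genes in head-to-head pairs were named by position or after their values were seen, and the messenger RNAs of mitochondrial DNA were added after the files were read.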

Additional observations from a re-analysis of the deposited data

Results flagged for a closer look

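Among 6 probe sets that carry the name of a mitochondrial ribosomal protein gene, pseudogene or antisense gene but were left out by the rule, 3 were above the filter and brighter on the siRNA array than on the control array. The probe set shared by MRPL51 and SPTLC1 read 1936 and 2779, a log2 ratio of 0.52. The probe set shared by MRPL53 and CCDC142 read 3375 and 4536, a log2 ratio of 0.43. The probe set shared by the pseudogene MRPS31P5 and THSD1 read 328 and 378, a log2 ratio of 0.21. All 3 ratios would be negative with the arrays level on the hybridization controls, and none can be given to a single gene.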

How the results depend on the processing

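No paired analysis was possible because each group has 1 array and no test was run. With the arrays level on the hybridization controls 25 genes were at least 2-fold lower and 0 at least 2-fold higher, and the medians were -0.82 for all members, -0.71 for the large and -0.87 for the small subunit. That level lowers every ratio by 0.61, and all measured genes then had a median of -0.57. Their 2-fold shares on that level were not computed, so the 25 genes have no background beside them. The count at least 2-fold higher was also 0, in place of 1, with the arrays level on the median probe set, after quantile normalization and after loess. Loess moved the large subunit's median from -0.10 to -0.22. Without _x_at and _s_at probe sets 41 genes were left, of which 5 were at least 2-fold lower, namely MRPL42, MRPL50, MRPS14, MRPS16 and MRPS7, with medians of -0.22 for the large and -0.53 for the small subunit. The share over all genes was not computed for that choice of probe sets. At 1.5-fold, 6 genes were higher and 16 lower, and at 3-fold 0 and 1. The list's median stayed below 0 under all 10 alternatives to the scaling, pseudocount, filter and probe set rule. A median was counted as moved at a shift of 0.1 and a gene at the probe set SD of 0.54. Of 234 ratios of 35 named members under an alternative, 184 moved by less, 50 by more, all 35 under the hybridization controls among them, and 0 of the members with a 2-fold difference changed sign. Part of this tally was fixed beforehand, since the hybridization controls shift every ratio by 0.61 and the median probe set by 0.09. A gene with 1 measured probe set could not move when probe sets were averaged. The tally is therefore no measure of how robust the ratios are. Among the other named members there were 25 changes of sign: 9 of 35 on the hybridization controls, 3 after loess, 2 each after quantile normalization and with the median probe set level, 4 with probe sets averaged, and 5 of 24 without _x_at and _s_at probe sets. In the last case MRPL42 went to -1.19, MRPS16 to -1.18, MRPL35 to -0.82, MRPS15 to -0.18 and MRPL12 to 0.55. The filters changed none of these counts, since every member was far above them. The number of arrays limits all values.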

Other observations

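The antisense gene MRPL20-AS1 read 842 on the control array and 302 on the siRNA array, 2.79-fold lower, while MRPL20 itself read 7281 and 4890, a log2 ratio of -0.57. The probe set shared by MRPS24 and the readthrough gene URGCP-MRPS24, bright at 11090 and 9552, had a log2 ratio of -0.22. MRPL41 had 5 measured probe sets, all above 0, from 0.19 to 1.06, and MRPS22 had 4, from -0.13 to 0.08.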
